A study of Mus musculus with 6 samples.

Results

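SIN3B occupied 3395 sites in E14 mouse embryonic stem cells at which no peak of REST or of the cofactors RCOR1, RCOR2, RCOR3 and SIN3A was listed. The sites are rows of the SIN3B peak list, on mouse genome build mm8. They were chosen by distance: a SIN3B peak was kept if no midpoint of the other 5 lists lay less than 400 bp from its own midpoint on the same chromosome. A crowded stretch of 100 kb near the end of chromosome X (165.3 to 165.4 Mb), with 24 SIN3B peaks, was left out beforehand. The 3395 sites made up 64.1% (exact 95% confidence interval 62.8 to 65.4%) of the 5294 SIN3B peaks outside that stretch. They were drawn from a total of 14023 peaks in the 6 lists. The remaining 1899 SIN3B peaks are called shared below.

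SIN3B is a scaffold protein without a DNA-binding domain of its own. It carries paired amphipathic helix domains through which DNA-bound factors recruit it, and it brings histone deacetylases to chromatin. REST, a zinc finger repressor of neuronal genes in non-neuronal cells, binds SIN3 proteins through its N-terminus and the CoREST proteins (RCOR1, RCOR2 and RCOR3) through its C-terminus. SIN3A is the close paralogue of SIN3B. SIN3 proteins are also recruited by other repressors, such as the MXD family.

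The binding of each of the 6 proteins was read from 1 ChIP-seq library (sequencing of DNA precipitated with the protein), made from E14 cells at passages 15 to 18. REST and SIN3A were precipitated with antibodies to the endogenous proteins. RCOR1, RCOR2, RCOR3 and SIN3B came from stable E14 lines with low levels of a tagged transgene, precipitated with a V5 antibody, although the transgene label of the SIN3B line reads VG. The labels name neither the promoter of the transgenes nor the number of clones behind each line. The lists held 3104 (REST), 84 (RCOR1), 459 (RCOR2), 3744 (RCOR3), 1314 (SIN3A) and 5318 (SIN3B) peaks. Read depth is not given in the sources used here. With 1 library per protein there was no replicate error and no test between proteins, and peaks are not replicates. Intervals cover counting error only, and a site missing from another list is a site below that list's unknown threshold.

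The lists did not contribute equally to the choice. Had SIN3A been ignored, 463 more SIN3B peaks would have counted as found in no other list. The corresponding numbers were 354 for REST, 228 for RCOR3, 13 for RCOR2 and 0 for RCOR1. No site overlapped any interval of another list as deposited. At the limit of the rule, the 3 sites named as nearest to another list lay exactly 400 bp from an RCOR3 peak. They were chr14:54040411-54040571 (score 19.07), chr19:6418311-6418351 (score 10.78) and chr3:87992251-87992311 (score 10.78). Just on the other side, the 3 SIN3B peaks named lay 390 bp away and were treated as shared. Ties were taken by chromosome and start, so neither number counts all peaks at its distance. The peaks named at 390 bp were chr10:79563011-79563051 (score 16.58, from RCOR3), chr2:38887551-38887591 (score 18.24, from SIN3A) and chr2:71456591-71456691 (score 11.61, from RCOR3). With 3 named peaks on each side of the limit, these scores allow no comparison of the sides.

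The sites ranked low within the SIN3B list, yet they included strong peaks. The score is a value per peak given by the authors, whose unit is not stated, and it was used for ranking within the list. The sites had a median score of 12.43 (quartiles 10.78 and 15.75, range 9.12 to 108.6). The shared SIN3B peaks had a median of 15.58 (quartiles 12.43 and 22.38, range 9.12 to 253.67). The mean percentile within the list was 44.6 for the sites and 59.5 for the shared peaks, a difference of -14.9. With only the better-scoring 50% of the SIN3B list, the difference was -4.88. Percentiles were not taken anew there, so both groups lay above percentile 50. That choice narrows the difference by itself, and -4.88 cannot be compared with -14.9 in size. The mean percentile of the sites was the lower of the pair on 20 of 20 chromosomes. The commonest score of the list, 10.78, was carried by 756 sites (22.3%) and by 179 shared peaks (9.43%). Scores below it were about as frequent in both, at 3.15% and 3.69%. The distributions overlapped widely.

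The share of SIN3B peaks found in no other list decreased with the SIN3B score. It was 77.6% (75.04 to 80.03%) of the 1112 peaks scoring at most 10.78 and 75.8% of those from 11.05 to 11.61. It was 57.3% from 15.34 to 16.58 and 40.1% (35.9 to 44.4%) among the 529 peaks scoring 27.77 or more. None of the 10 highest-scoring SIN3B peaks was found in no other list. Among the 50 highest it was 10 peaks (20%, 10.03 to 33.72%), and among the 500 highest 202 peaks (40.4%, 36.1 to 44.8%). The 3395 sites are therefore not only weak peaks. The same direction held for RCOR3, whose 2289 sites found in no other list had a mean percentile of 42.2 in their own list against 62.4 for the other 1440 RCOR3 peaks, a difference of -20.1.

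**Figure D1:**
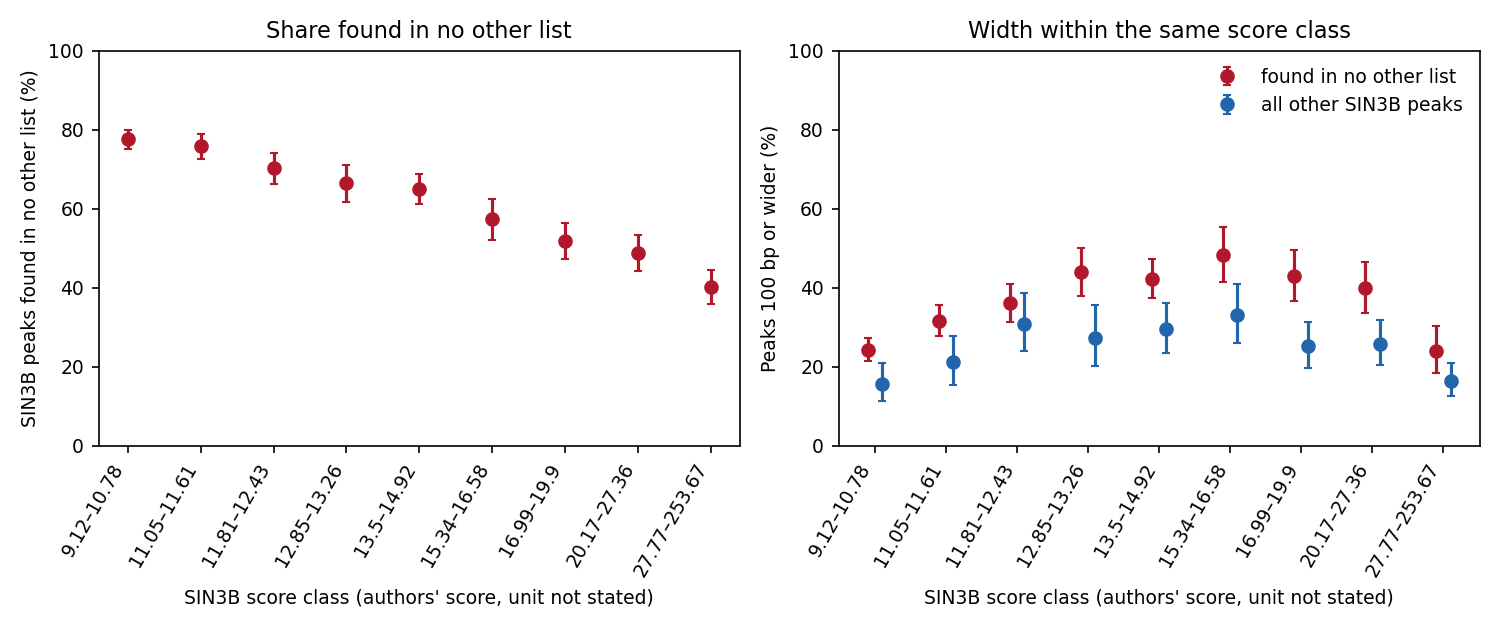
Left, the share of SIN3B peaks found in no other list (y axis, percent) in 9 classes of SIN3B score (x axis, the authors' score). Right, the share of peaks 100 bp or wider in the same classes, for sites found in no other list (red) and all other SIN3B peaks (blue). Points are shares and bars are exact 95% confidence intervals. The left share falls from 77.6% to 40.1%, and in the right panel the red point is above the blue one in 9 of 9 classes.

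The 10 highest-scoring sites were spread over 7 chromosomes and lay 15.93 to 805.86 kb from the nearest peak of any other list. The highest was chr1:166144171-166144231, 60 bp wide with a score of 108.6 at percentile 99.8. Its nearest neighbour was a REST peak 15.93 kb away, and its nearest RCOR3 and SIN3A peaks were 528.09 and 6842.94 kb away. Next came chr13:101204371-101204411 with a score of 107.77. REST, RCOR3 and SIN3A peaks all lay about the same distance from it, at 106.62, 106.64 and 106.59 kb. The third was chr8:13158971-13159171, 200 bp wide, with a score of 106.11 and REST 289.27 kb away. These 3 sites each stood well above the 90th percentile score of the sites, 22.38.

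The other high sites followed in steps down to a score of 69.63. The site chr2:164726111-164726151 scored 91.19 and chr12:111039531-111039571 scored 89.53. The latter had another such site 330 bp away. Sites chr9:21117871-21118151 (88.7) and chr5:120957151-120957331 (85.38) were 280 and 180 bp wide. The last 3 were chr1:93324991-93325031 (74.61), chr1:69760071-69760111 (71.29) and chr12:65884291-65884531 (69.63). The last of these was the most remote of the 10, with REST 805.86 kb and SIN3A 4232.59 kb away. Of these 10 sites, only the one with a score of 89.53 had another site of the set within 10 kb. Genes at these positions are not named, as the gene tables at hand are on another build.

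The sites were more often wide than the SIN3B peaks at REST, and were not distinguished by width from the other shared peaks. A width of 100 bp or more was found for 1170 of the 3395 sites (34.5%, 32.9 to 36.1%) and for 455 of the 1899 shared peaks (24.0%, 22.1 to 25.9%). The difference was 10.5 percentage points (95% interval 7.98 to 12.97, Newcombe). It had the same direction in 9 of 9 classes of score, with an interval above 0 in 8, and on 19 of 20 chromosomes. Among the shared peaks, those at REST were the narrow ones, with 16.7% (14.6 to 19.0%) of 1148 at 100 bp or more. Of the 751 shared peaks away from REST, 35.0% (31.6 to 38.6%) were that wide, which differed from the sites by -0.558 percentage points (-4.38 to 3.14). Width thus set apart the SIN3B peaks at REST, and the interval between the sites and the other peaks away from REST still allows a few percentage points either way. Score separated them only as a pool: the shared peaks away from REST had a mean percentile of 57.2, against 44.6 for the sites. The pool was mixed by partner. Its mean percentile was 63.4 for the peaks with SIN3A, 46.5 for those with RCOR3 and 39.8 for those with RCOR2. The sites thus ranked below the peaks with SIN3A, but close to those with RCOR3 and above the few with RCOR2.

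The median width of 60 bp was the same for sites and shared peaks. Peaks of the minimum width of 40 bp made up 35.7% of the sites and 48.3% of the shared peaks. The 5 widest sites were chr8:73794431-73795211 (780 bp, score 27.36), chr8:108605491-108606211 (720 bp, 13.26), chr17:23400951-23401571 (620 bp, 11.61), chr6:6824071-6824631 (560 bp, 16.58) and chr5:93037911-93038451 (540 bp, 24.04). None of these 5 was among the 10 highest by score. The widest lay 3.81 kb from an RCOR2 peak, and the other 4 at least 11.89 kb from any other list.

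The score of the shared peaks differed by their partner. The 274 SIN3B peaks that met RCOR3 without REST had a median score of 13.26 and a mean percentile of 46.5. The 502 SIN3B peaks that met SIN3A without REST had a median of 15.75, an upper quartile of 28.19 and a mean percentile of 63.4. The 1148 at REST had a median of 16.16 and a mean percentile of 61.1. The 23 that met RCOR2 without REST had a median of 12.43, the same as the sites, and a mean percentile of 39.8.

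Chromosome shares of the sites resembled those of the shared SIN3B peaks. The interval of the difference left out 0 on 1 of 20 chromosomes, chromosome 5, which held 6.80% of the sites and 8.48% of the shared peaks (difference -1.67 percentage points, -3.23 to -0.199). With 20 chromosomes compared, 1 such interval is not read as a difference. Sites were densest on chromosome 11, with 316 sites or 2.66 per Mb of the span covered by the lists, then chromosome 8 (298, 2.35 per Mb) and chromosome 19 (116 sites). Autosomes went down to 0.860 per Mb on chromosome 1. Chromosome X had 20 sites (0.126 per Mb), below every autosome, and 6 shared peaks.

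Chromosome 8 held 8.78% of the sites (7.85 to 9.78%) and 8.85% of the shared SIN3B peaks (7.61 to 10.2%). The share of the sites lay between those of other sets of peaks. Of the SIN3B peaks at REST it held 5.75% (4.47 to 7.26%), and of those with SIN3A and without REST 18.1% (14.9 to 21.8%). Of all REST peaks outside the stretch of chromosome X it held 5.32% (4.56 to 6.18%), and of RCOR3 sites found in no other list 1.92% (1.40 to 2.57%). Of the whole SIN3A, RCOR2 and RCOR3 lists outside the stretch it held 14.8%, 12.4% and 2.47%. On chromosome 9 the sites kept 5.98% (5.21 to 6.83%), next to 5.91% of REST peaks, while RCOR3 sites found in no other list had 0.481% (0.240 to 0.858%). The sites thus did not share the low RCOR3 shares on these chromosomes. On chromosome 8 the mean percentile of the sites was 41.6, and 42.3% were 100 bp or wider. For the shared SIN3B peaks of that chromosome these values were 61.3 and 39.9%.

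**Figure D2:**
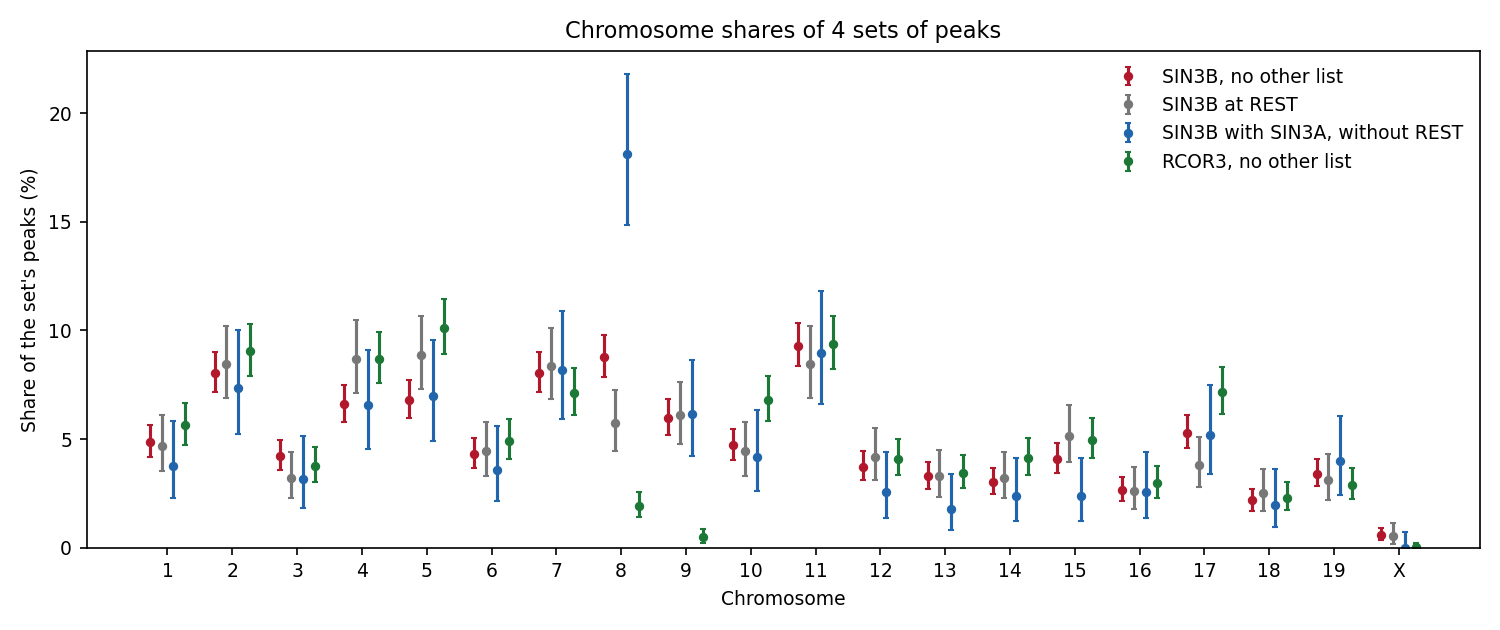
Share of each set of peaks on each chromosome (y axis, percent; x axis, chromosome) for SIN3B sites found in no other list (red), SIN3B peaks at REST (grey), SIN3B peaks with SIN3A and without REST (blue) and RCOR3 sites found in no other list (green). Points are shares and bars are exact 95% confidence intervals. On chromosome 8 the red point, 8.78%, lies between the grey (5.75%) and the blue (18.1%), and the green one is at 1.92%.

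The sites on chromosome 8 were gathered from 60 to 120 Mb, as were the shared SIN3B peaks. The 20 Mb from 80 to 100 Mb held 103 of the 298 and the 20 Mb before it held 76, whereas 20 to 40 Mb held 8. In windows of 1 Mb, the richest in the genome was 87 to 88 Mb of chromosome 8, with 41 sites, followed by 73 to 74 Mb with 27. A further window at 108 to 109 Mb held 16. These 3 windows held 28.2% (23.2 to 33.7%) of the sites of chromosome 8, 29.2% (22.4 to 36.7%) of its shared SIN3B peaks, 30.4% (23.9 to 37.4%) of its SIN3A peaks and 11.6% (7.12 to 17.5%) of its REST peaks. Without the 3 windows, chromosome 8 held 6.46% of the remaining sites (5.65 to 7.36%) and 6.43% of the remaining shared SIN3B peaks (5.36 to 7.65%), next to 4.74% of REST peaks (4.01 to 5.55%), 2.07% of RCOR3 peaks and 10.8% of SIN3A peaks.

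In the richest window, the 41 sites had scores of 9.95 to 29.84 with a median of 12.43, and 20 were 100 bp or wider. The median gap between neighbours was 12.23 kb. The same Mb held 18 shared SIN3B peaks, 14 SIN3A peaks, 10 REST peaks and 4 RCOR3 peaks. At 73 to 74 Mb, the 27 sites had a median score of 14.09 and reached 58.44, beside 24 SIN3A, 9 RCOR3 and 6 REST peaks. The next windows lay on other chromosomes, with 18 sites at 80 to 81 Mb of chromosome 10 and 16 at 96 to 97 Mb of chromosome 11. The chromosome 10 window held 17 RCOR3 and 6 SIN3A peaks.

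Over all 2556 windows of 1 Mb, the number of sites per window had a mean of 1.33 and a variance of 5.42. No site fell in 1335 windows (52.2%), while the 191 windows with 5 or more sites (7.47%) held 42.2% of them. Across windows, the number of sites had a Spearman correlation of 0.559 with the number of RCOR3 peaks, 0.507 with SIN3A peaks, 0.484 with shared SIN3B peaks and 0.416 with REST peaks. Pearson's r gave another order, with 0.658 for SIN3A peaks, 0.627 for shared SIN3B peaks, 0.541 for RCOR3 peaks and 0.441 for REST peaks. Windows are not independent, and lists of different length fill different numbers of them, so these values are descriptive. Peaks of another list were missing altogether from 155 windows that held a site.

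Within the set, sites came in close pairs more often than RCOR3 sites found in no other list did. Up to 1 kb, their shares were near those of the whole SIN3B list. Another site lay within 1 kb for 247 of the 3395 (7.28%, 6.42 to 8.20%) and within 400 bp for 115 (3.39%, 2.80 to 4.05%). For the 2289 RCOR3 sites these shares were 2.36% (1.78 to 3.07%) and 0.524% (0.271 to 0.914%). For the other 1440 RCOR3 peaks they were 2.43% and 0.833%, so both parts of the RCOR3 list had low shares. For the shared SIN3B peaks they were 4.63% and 2.63%, and for REST, with 3080 peaks outside the stretch, 5.94% and 4.06%. Over all 5294 SIN3B peaks outside the stretch they were 7.73% (7.02 to 8.48%) and 3.27% (2.81 to 3.78%). A longer list has closer neighbours, but REST and the sites are of like length. At 10 kb the order was the same for the sites and RCOR3, with 16.6% (15.4 to 17.9%) against 14.9% (13.5 to 16.5%), and these intervals overlapped. Over all SIN3B peaks the share at 10 kb was 20.6% (19.6 to 21.8%). With only the better-scoring 50% of the SIN3B list, which leaves fewer sites, the share of sites within 10 kb of another was 6.67%.

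The gaps between neighbouring sites thinned out as the gap grew. No gap was under 230 bp, the smallest in the set. There were 58 gaps below 400 bp, 38 from 400 to below 600 bp, 18 from 600 to below 800 bp and 11 from 800 bp to below 1 kb. From 1 to 2 kb there were 33, or 3.3 per 100 bp, and from 5 to 10 kb 92, or 1.84 per 100 bp. Close pairs therefore stood out over the level at several kb. In the 125 pairs under 1 kb, the median gap was 410 bp, and the higher score exceeded the lower by a median factor of 1.25 (quartiles 1.08 and 1.54, largest 6.75). In 16 pairs both scores were equal.

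**Figure D3:**
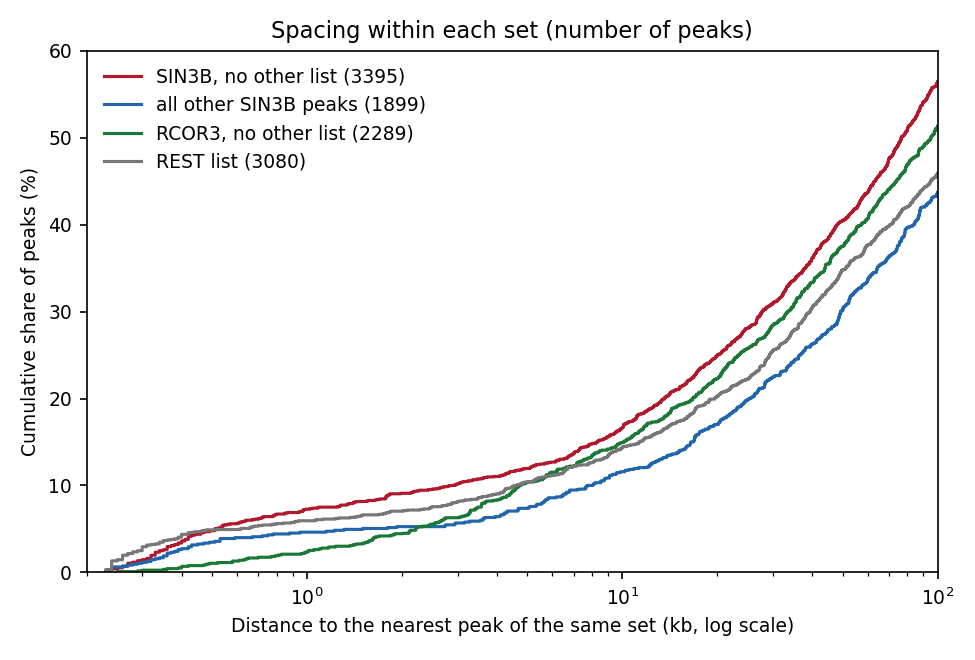
Cumulative share of peaks (y axis, percent) by distance to the nearest peak of the same set (x axis, kb, log scale) for SIN3B sites found in no other list (red), all other SIN3B peaks (blue), RCOR3 sites found in no other list (green) and the REST list (grey). The number of peaks in each set is in the legend. The red line reaches 7.28% at 1 kb and 16.6% at 10 kb, and the green line 2.36% and 14.9%.

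Longer chains were rare. With gaps of up to 10 kb between neighbours, 2830 sites (83.4%) stood alone, 221 chains held 2 sites and 24 held 3. The remaining 11 chains held 4 to 6. The longest was chr11:118850411-118870991, with 6 sites in 20580 bp. Their scores were 10.78, 10.78, 30.67, 31.5, 12.43 and 10.78 from left to right, so that a strong pair 610 bp apart was flanked by weak sites. A SIN3A peak lay inside the chain, between the fifth and the last of them, 2.19 kb from the last. A chain of 5 at chr10:42267991-42280331 had scores of 11.61, 14.92, 14.09, 14.09 and 14.09, 4.75 kb from an RCOR3 peak. Another chain of 5 at chr2:71330391-71347671 had scores of 13.26, 10.78, 9.95, 11.61 and 11.61 and lay 76.1 kb from any other list. Sites with another within 10 kb had the same median score as those without, 12.43. Of these 565 sites, 16.5% (13.5 to 19.8%) were on chromosome 8, against 7.24% (6.32 to 8.26%) of the 2830 others.

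The nearest peak of any other list was a median of 52.53 kb from a site (quartiles 16.14 and 138.64 kb). It was an RCOR3 peak for 43.9% of sites, a REST peak for 31.0%, a SIN3A peak for 20.6% and an RCOR2 peak for 4.30%. Another list had a peak within 10 kb of 612 sites (18.0%, 16.7 to 19.4%) and none within 100 kb of 1134 sites (33.4%, 31.8 to 35.0%). The number of peaks in each list shapes these distances. They were therefore set beside the distances obtained after moving a list by a single random offset round each chromosome, 1000 times, counting only sites at least 400 bp from the moved list. Distance to other lists is what chose the sites, so the shifted lists are a reference level and no p-value is given.

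SIN3A stood out at short range. Between 400 bp and 1 kb of a SIN3A peak lay 62 sites (1.83%, 1.40 to 2.34%), 25.7 times the mean of 0.0710% in shifted lists, which reached at most 0.265%. For RCOR3 the same distance held 49 sites (1.44%), 7.13 times its shifted mean, and for REST 22 sites (0.648%), 4.08 times. The intervals of these ratios were 19.8 to 32.9 for SIN3A, 5.28 to 9.40 for RCOR3 and 2.56 to 6.17 for REST. They cover counting error of the sites over a fixed shifted mean, and the lists were not tested against each other. RCOR2 had 3 sites at that distance and RCOR1 had 0, which allows no comparison. For RCOR3 sites found in no other list, the SIN3A ratio from 400 bp to 1 kb was 2.09 (0.431 to 6.10), from 3 sites.

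The sites near SIN3A continued the tail of the shared peaks over the 400 bp limit. SIN3B peaks numbered 650 at less than 200 bp from a SIN3A peak and 74 from 200 to below 400 bp. The sites numbered 31 from 400 to below 600 bp, 17 from 600 to below 800 bp and 14 from 800 bp to below 1 kb. For REST, SIN3B peaks dropped from 1138 below 200 bp to 10 from 200 to below 400 bp, with 9 sites in the next 200 bp. SIN3B peaks were thus less tightly centred on SIN3A peaks than on REST peaks. The 62 sites near SIN3A had scores of 9.74 to 39.79 with a median of 12.43, came from 16 chromosomes, and 13 lay on chromosome 8. At 25 of the 62 (40.3%, 28.1 to 53.6%), the neighbouring SIN3A peak also had a SIN3B peak of its own less than 400 bp away, which scored higher than the site in 17. Over all SIN3A peaks outside the stretch, 54.5% (51.7 to 57.2%) had one.

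At longer range every list with enough peaks was nearer than in its shifted copies. From 400 bp to 10 kb, the ratio to the shifted mean was 5.60 for SIN3A (214 sites, 6.30% against 1.13%), 3.70 for RCOR2 (48 sites), 3.58 for RCOR3 (356 sites, 10.5% against 2.93%) and 2.41 for REST (198 sites, 5.83% against 2.42%). RCOR1 had 2 sites in that range. From 50 to 100 kb the ratio was still 2.71 for SIN3A, 1.88 for RCOR3 and 1.62 for REST. RCOR3 sites found in no other list had ratios from 400 bp to 10 kb of 3.63 (2.91 to 4.46) to SIN3A, 1.86 (1.53 to 2.24) to REST and 5.08 (3.67 to 6.85) to RCOR2. The intervals for the SIN3B sites were 4.90 to 6.38 for SIN3A and 2.09 to 2.76 for REST. Whether these ratios differ between the SIN3B and RCOR3 sites was not tested.

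When lists were moved by only 20 to 500 kb, so that they stayed in the same neighbourhood, the moved lists were also nearer to the sites than after shifts along whole chromosomes. The ratio from 400 bp to 10 kb was then 1.81 (1.58 to 2.05) for SIN3A, 1.57 (1.42 to 1.73) for RCOR3, 1.57 (1.16 to 2.07) for RCOR2 and 1.33 (1.16 to 1.53) for REST. From 1 to 5 kb the ratio was 1.27 (0.983 to 1.62) for SIN3A and 1.49 (1.26 to 1.75) for RCOR3. RCOR2 had 2.03 (1.33 to 2.97) there and REST 1.33 (1.07 to 1.65). From 5 to 10 kb the ratio was 1.47 (1.18 to 1.80) for SIN3A and 1.42 (1.22 to 1.65) for RCOR3. There the intervals of RCOR2 (1.21, 0.728 to 1.88) and REST (1.21, 0.982 to 1.49) reached below 1. From 50 to 100 kb the ratio was 0.890 to 1.09 for these 4 lists. The short range remained, at 7.68 (5.90 to 9.82) for SIN3A, 3.17 (2.35 to 4.19) for RCOR3 and 2.27 (1.43 to 3.43) for REST from 400 bp to 1 kb. RCOR2, with 3 sites at that distance, had a ratio of 1.46 (0.302 to 4.27), and RCOR1 had no site there.

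**Figure D4:**
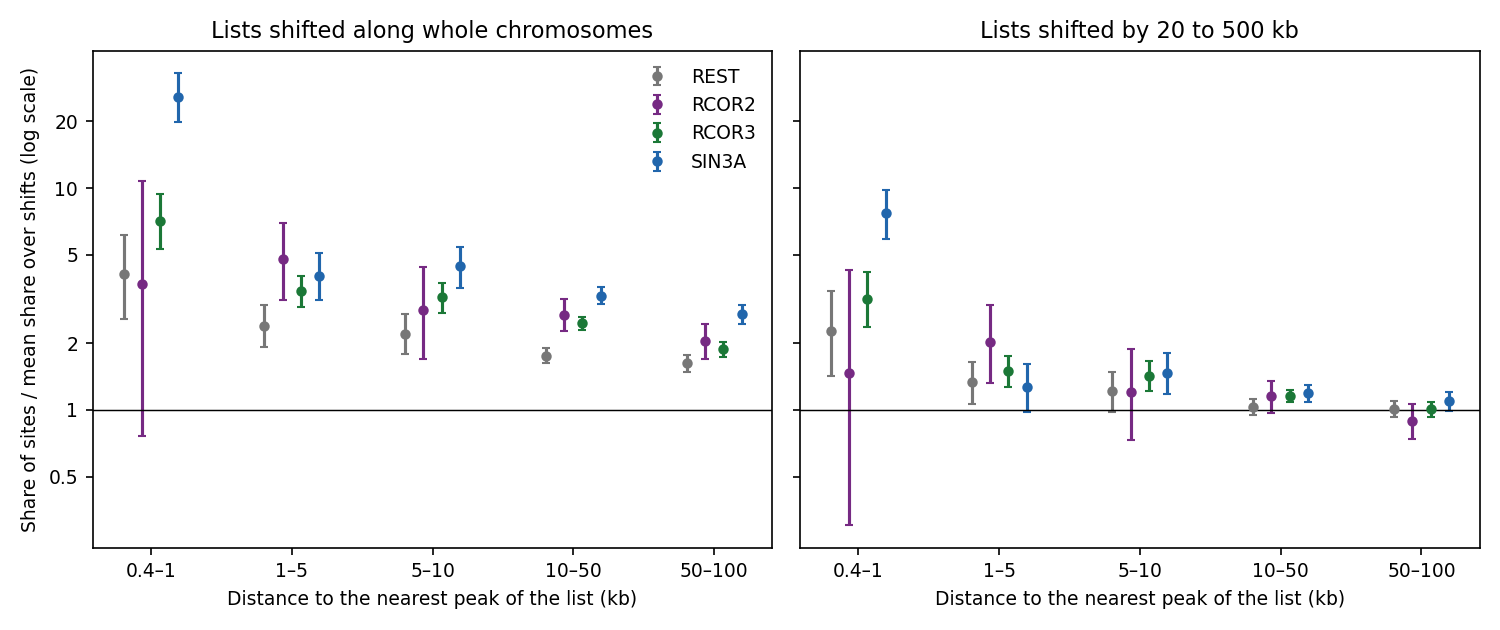
Share of SIN3B sites in each class of distance to the nearest peak of REST, RCOR2, RCOR3 or SIN3A, divided by the mean share over 1000 shifts of that list (y axis, log scale; x axis, distance in kb). Lists were shifted along whole chromosomes (left) or by 20 to 500 kb (right). Points are ratios, bars are exact 95% intervals of the share over the same mean, and the line marks a ratio of 1. SIN3A at 0.4 to 1 kb is highest in both panels, at 25.7 and 7.68, and from 50 to 100 kb the right panel is at 0.890 to 1.09.

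Sites near another list were not stronger than the rest. The median score was 12.43 for the 612 sites with another list at 400 bp to 10 kb and 13.26 for the 1134 with none within 100 kb, with mean percentiles of 42.3 and 46.6. Sites near SIN3A at 400 bp to 10 kb had a mean percentile of 42.5 and those near REST 41.3. Chromosome 8 held 25.2% (19.6 to 31.6%) of the 214 sites near SIN3A and 39.6% (25.8 to 54.7%) of the 48 near RCOR2, against 10.1% (6.28 to 15.2%) of the 198 near REST and 5.06% (3.02 to 7.87%) of the 356 near RCOR3.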

How the data were processed

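For each of the 6 libraries the authors deposited a list of peaks, giving position and a score of unstated unit. Build mm8 comes from the names of the deposited lists. Sources used here do not give the aligner, peak caller, control, threshold or depth. Per the labels' protocols, libraries had 15 PCR cycles and fragments of about 250 bp. Starts fall on multiples of 20 bp with a fixed offset, and positions are printed as deposited. The sites, sets and measures were chosen with earlier results of these data known.

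Distances are between midpoints. Tied scores share a mean rank. Score classes keep tied values together. Shares have exact Clopper-Pearson intervals. Reference distances came from 1000 circular shifts per list within the span of all 6 lists on each chromosome. Alternatives other than the local shift used 200. Whole-chromosome shifts were tested on simulated sites placed uniformly along chromosomes, with or without some added near SIN3A peaks. Clustered sites and the local shift were not simulated. Regions named are the 10 highest and 5 widest sites, the 3 longest chains (ties by chromosome and start), the 3 sites nearest to and farthest from another list and the 3 SIN3B peaks just inside the limit. The rich windows of 1 Mb and the sets compared by width away from REST were chosen after their values were seen. Python 3.11.15, NumPy 2.4.6, pandas 2.3.3, SciPy 1.17.1 and Matplotlib 3.10.9 were used.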

Additional observations from a re-analysis of the deposited data

How the results depend on the processing

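The definition of a shared peak moved the share of SIN3B peaks found in no other list from 64.1% to 66.2% (limit of 200 bp), 61.9% (1 kb), 57.4% (5 kb) or 72.0% (intervals as deposited). Leaving a list out of the rule gave 72.9% (SIN3A), 70.8% (REST) or 68.4% (RCOR3). With the better-scoring 50% of the SIN3B list alone, the share was 52.8%, the percentile difference -4.88, the share on chromosome 8 7.52%, the share within 10 kb of another site 6.67% and the ratio for RCOR3 3.14. With the better-scoring 50% of every list these were 61.9%, -5.33, 8.63%, 8.17% and 2.83, with ratios of 2.43 for RCOR2 and 0 for RCOR1. Fewer sites were kept in these settings, and whether this alone lowered the share within 10 kb was not tested. Percentiles were not taken anew, so both groups lay above percentile 50 and the percentile difference was narrowed by the choice itself.

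With the limit of 5 kb, the percentile difference was -12.2 and the share within 10 kb 15.3%. That share was 13.5% with neighbouring SIN3B peaks merged and 15.2% without chromosome 8. The SIN3A ratio from the limit to 10 kb was 7.20 with 200 bp and 4.34 with 1 kb. Ratios with the limit of 5 kb were not run. With the local shift the ratios were 1.33 for REST, 1.57 each for RCOR2 and RCOR3 and 1.81 for SIN3A, and 0.418 for RCOR1 from 2 sites. Of 85 recomputed values of these kinds, 57 stayed within the interval of the reported one. Only the percentile difference could change sign, and it stayed between -16.1 and -4.88 in 9 alternatives. The value of -4.88 came from a setting that cut the percentile scale, so it compares in sign only. The RCOR1 ratio, 1.22 from 2 sites as reported, ranged from 0 to 1.90, so it fell on either side of 1. No paired analysis was possible because each protein has 1 library. The lists give no depth, so nothing is said on why a site is missing from another list.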

Other observations

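The most remote sites were on chromosomes X and 6. The site chrX:44868131-44868371, 240 bp wide with a score of 10.78, lay 12831520 bp from the nearest peak of any other list. Next were chrX:90619651-90619711 (score 26.53, 5402680 bp) and chr6:13019731-13019771 (score 19.07, 4112050 bp). In all, 69 sites (2.03%, 1.58 to 2.57%) had no other list within 1 Mb. Their median score was 13.26 and the highest 55.54, and 2 of them lay on chromosome 8.

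From the side of SIN3A, 49 of 1292 peaks (3.79%, 2.82 to 4.98%) had their nearest SIN3B peak at 400 bp to 1 kb, and 95 (7.35%) at 1 to 10 kb. The limit of 400 bp therefore treats these SIN3A peaks as lacking SIN3B.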
